A study of Saccharomyces cerevisiae with 3 samples.

Results

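The genes described here encode the DNA replication machinery of baker's yeast, from the proteins that mark origins to the ligase that seals the finished strand. They were chosen by name as 37 genes, all 37 of which were found among the 5539 genes named on the arrays, each with 2 spots. By role they form 4 parts: 9 origin genes, 10 helicase genes, 7 polymerase genes, and 11 genes of the sliding clamp, its loader, the single-strand binding protein and lagging-strand completion, called the clamp part below. Each of the 3 arrays carried total RNA of a yap1 deletion mutant in the Cy3 channel and total RNA of wild type in the Cy5 channel, both from Saccharomyces cerevisiae exposed to 0.2 mM As(III), arsenite, for 1 h. Both strains were stressed, so the arrays compare genotypes under arsenite and hold no unstressed sample, and the strain background is not given in the labels. Yap1 is a transcription factor of the oxidative and metal stress response.

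In eukaryotes the origin recognition complex (ORC) sits on replication origins, and together with Cdc6 and Cdt1 it loads the ring-shaped Mcm helicase in G1 phase. Cyclin-dependent kinase and the Cdc7-Dbf4 kinase then switch the helicase on by joining Cdc45 and the GINS complex to it. DNA polymerase alpha-primase makes the primers, polymerase epsilon extends the leading strand and polymerase delta the lagging strand, both helped by the clamp PCNA. In budding yeast many of these genes are transcribed in a burst at the passage from G1 to S phase, driven by the transcription factor MBF, so their transcripts also follow the share of cells in that phase.

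Values are the deposited log ratio, averaged over the spots of a gene, minus the median of the named genes on that array. The subtracted medians were −2.11 (replicate 1), −2.30 (replicate 2) and −1.59 (replicate 3). Neither the log base nor the direction of the ratio is stated in the sources used here. The mutant comes first in the titles, but the wild type carries Cy5. Genes are therefore placed on the high or the low side of the array median, and neither a strain nor a fold change is attached to a side. The dyes were never swapped, so a dye effect and a strain difference cannot be told apart. The deleted gene YAP1 lay at −1.43, −0.22 and −0.74, close to the middle of replicate 2. Its mean of −0.80 ± 0.61 (SD, n = 3) passed on the low side (limma adjusted p = 0.0323). The SD between its spots was 0.75, against a median of 0.27 over all genes. The number of arrays limits the precision, and nothing says that the arrays came from separate cultures, so p-values measure only the spread between arrays. In limma that spread is mostly pooled over all genes (13.3 prior degrees of freedom). The SD printed for a gene is therefore not the spread behind its p-value. For ORC2 the SD was 0.81 and the limma standard error 0.28. The array medians were set as 0 by choice: as deposited, 36, 37 and 36 of the 37 replication genes had a ratio below 0, beside 98.4, 98.9 and 96.9% of all genes. The order of genes on an array, their percentiles and the differences between genes do not depend on that choice.

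Of the 37 replication genes, 9 passed a limma adjusted p of 0.05, comprising 7 high-side and 2 low-side genes, and 28 did not. Over all 5539 genes 28.5% passed (16% high, 12.5% low), so the 24.3% of replication genes that passed was near the background. An unadjusted p under 0.05 was reached by 15 of the 37, beside 40.8% of all genes. The high-side genes were POL12, POL1 and POL3 of the polymerases, PSF1 and DPB11 of the helicase part, and ORC3 and DBF4 of the origin part. The low-side genes were ORC2 and ORC5, both of the origin part, and no clamp gene passed on either side. The median of the 37 means was 0.15, against −0.02 over all genes, and the median on the separate arrays was 0.16, 0.26 and 0.15.

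**Figure D1:**
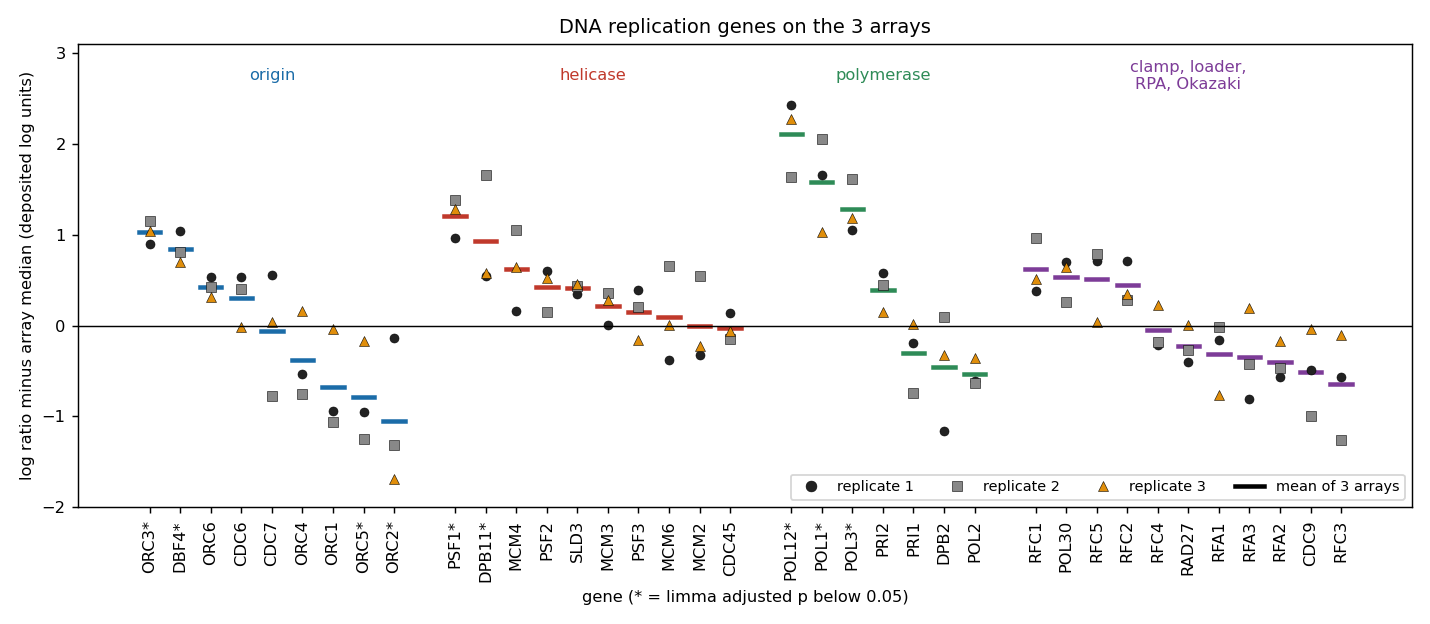
Log ratio minus the array median (y axis, deposited log units) for each of the 37 replication genes (x axis), ordered by mean within the 4 parts; symbols are the 3 arrays, bars the mean, and an asterisk marks a limma adjusted p below 0.05. POL12, POL1 and POL3 have the highest means, at 2.11, 1.58 and 1.28, and the clamp genes all lie between −0.64 and 0.62.

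The polymerase part held the 3 highest of the 37 means, POL12, POL1 and POL3, while its other 4 genes lay between −0.53 and 0.39 and did not pass. POL12 (YBL035C), the B subunit of polymerase alpha, which ties the polymerase to its partners, lay at 2.43, 1.63 and 2.27 on replicates 1, 2 and 3. Its percentile among all genes was 99.6, 95.1 and 99.5 on these arrays, and its mean was 2.11 ± 0.42 (SD, n = 3; limma adjusted p = 1.72e-05). It was the only one of the 37 genes with a ratio above 0 as deposited, on replicates 1 and 3. POL1 (YNL102W), the catalytic subunit of the same enzyme, lay at 1.66, 2.05 and 1.03, at percentiles of 95.4, 97.7 and 93.6, and its mean was 1.58 ± 0.52 (SD, n = 3; limma adjusted p = 0.000337). POL12 was the higher of the pair on replicates 1 and 3 and POL1 on replicate 2, so these 2 genes did not differ beyond their spread (0.53 ± 0.86, SD, n = 3).

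The primase subunits of the same 4-protein complex lay lower. PRI1, the catalytic primase subunit, lay at −0.19, −0.74 and 0.02, and PRI2, the large primase subunit, at 0.57, 0.45 and 0.15. Neither passed in limma (adjusted p = 0.362 and 0.217). POL12 exceeded PRI1 by 2.62, 2.37 and 2.26 on the 3 arrays, a difference of 2.42 ± 0.18 (SD, n = 3), and POL1 exceeded PRI1 by 1.88 ± 0.89. Against PRI2 the differences were 1.72 ± 0.49 for POL12 and 1.19 ± 0.37 for POL1 (SD, n = 3 each). Both polymerase subunits thus stood above both primase subunits on every array. These differences were not tested; they are given with their SD, and an exact sign-flip test over 3 arrays has a smallest two-sided p of 0.25.

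Among the enzymes that copy the bulk of the genome, the catalytic subunits of polymerases delta and epsilon lay apart. POL3, which encodes the delta catalytic subunit, lay at 1.06, 1.61 and 1.18 (mean 1.28 ± 0.29, SD, n = 3; limma adjusted p = 0.00109). POL2, which encodes the epsilon catalytic subunit, lay at −0.61, −0.63 and −0.35 (mean −0.53 ± 0.15, SD, n = 3), and did not pass in limma (adjusted p = 0.0946). POL3 exceeded POL2 by 1.66, 2.24 and 1.53 on the 3 arrays. DPB2, the essential second subunit of epsilon, lay at −1.16, 0.10 and −0.32 and did not pass (limma adjusted p = 0.2), and its replicates fell on both sides of the median. The small epsilon subunits DPB3 and DPB4 were near the median at 0.09 and 0.15. POL31 and POL32, the other delta subunits, lay at 0.34 ± 0.48 and −0.45 ± 0.53 (SD, n = 3 each), both below POL3 on every array.

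**Figure D2:**
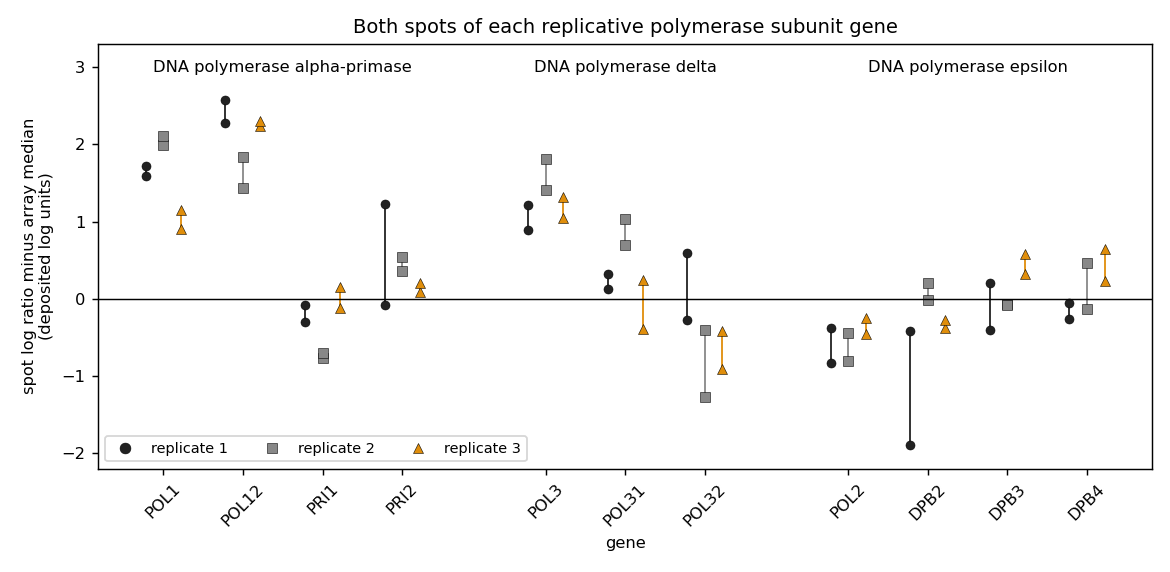
Spot log ratio minus the array median (y axis, deposited log units) for both spots of each subunit gene of the replicative polymerases (x axis); a line joins the 2 spots on one array and symbols mark the arrays. The 6 spot values each of POL1, POL12 and POL3 lie between 0.89 and 2.58, while those of POL2 lie between −0.84 and −0.25.

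The separate spots also held POL12, POL1 and POL3 apart from POL2, although POL12, POL1 and POL3 overlapped among themselves. The 6 spot values of POL12 ran from 1.43 to 2.58, those of POL1 from 0.91 to 2.11 and those of POL3 from 0.89 to 1.82. POL2 was the only replication gene with all 6 spot values below the array median, from −0.84 to −0.25. In all, 11 of the 37 genes (29.7%) had all 6 spot values above the median, and 1 (2.7%) had all below. Over the 5510 genes with 2 spots the shares were 21.9% above and 15.3% below. Beside the 7 high-side genes, the 11 comprised ORC6, POL30, RFC1 and RFC2, none of which passed the threshold.

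The 6 ORC genes were spread over both sides. ORC3, a core subunit, lay at 0.90, 1.15 and 1.04 (mean 1.03 ± 0.13, SD, n = 3; limma adjusted p = 0.004). ORC2, also a core subunit, lay at −0.14, −1.31 and −1.69 (mean −1.05 ± 0.81, SD, n = 3; limma adjusted p = 0.013), and its percentile was 42.6 on replicate 1 but 0.794 on replicate 3. ORC5, an ATP-binding subunit, lay at −0.95, −1.25 and −0.16 (mean −0.79 ± 0.56, SD, n = 3; limma adjusted p = 0.0316). ORC2 was low on replicates 2 and 3, and ORC5 on replicates 1 and 2.

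The remaining ORC genes did not pass in limma. ORC1, the ATPase subunit, lay at −0.94, −1.06 and −0.03 (mean −0.68, adjusted p = 0.0583), close to the threshold. It was past it on the low side with centring within print blocks (−0.93, adjusted p = 0.0156), with robust moderation (adjusted p = 0.0482) and without the genes of large scatter between spots (adjusted p = 0.0476). ORC4 lay at −0.53, −0.76 and 0.16 (adjusted p = 0.27). ORC6, the subunit least related to the others, lay at 0.54, 0.43 and 0.32 (adjusted p = 0.17). ORC3 stood above each of the other ORC genes on every array, by 0.60 ± 0.21 over ORC6 and by 2.08 ± 0.91 over ORC2 (SD, n = 3 each). ORC1, ORC4 and ORC5 moved in parallel from array to array, each lowest on replicate 2 and highest on replicate 3. ORC4 exceeded ORC5 by 0.41 ± 0.09 and ORC1 exceeded ORC5 by 0.11 ± 0.09 (SD, n = 3 each). The SD of each gene alone was 0.48 to 0.56. The pattern was not particular to ORC. RFC3 (−0.57, −1.26 and −0.11), CDC9 (−0.49, −1.0 and −0.04) and PRI1 (−0.19, −0.74 and 0.02) also had it.

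The 2 low-side ORC genes had widely scattered spots. On replicate 2 the spots of ORC2 read −2.02 and −0.61, and those of ORC5 read −2.16 and −0.34. The SD between repeated spots, averaged over the arrays, was 0.80 for ORC2 and 0.59 for ORC5, against a median of 0.27 over all genes. Each call depended on the settings. ORC2 was not past the threshold without replicate 3 (−0.73, limma adjusted p = 0.236), from its second spot alone (−0.54, adjusted p = 0.222) or with centring within print blocks (−0.75, adjusted p = 0.0753). ORC5 was not past it without any one of the arrays (−0.56 to −1.10, limma adjusted p = 0.0619 to 0.265).

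Cdc7 kinase needs its partner Dbf4, whose abundance rises in S phase, to act. DBF4 lay at 1.04, 0.81 and 0.70 with nearly equal spots (SD between spots 0.06), and its mean was 0.85 ± 0.17 (SD, n = 3; limma adjusted p = 0.0132). CDC7 lay at 0.56, −0.78 and 0.04 and was close to the median on average (−0.06 ± 0.67, SD, n = 3). DBF4 was above CDC7 on each array, by 0.91 ± 0.59 (SD, n = 3). The call of DBF4 was lost without replicate 2 (limma adjusted p = 0.0523) and without replicate 3 (adjusted p = 0.093), although its value stayed between 0.75 and 0.92 when an array was left out. With centring within print blocks it was 0.57 (adjusted p = 0.0584). The call was also lost from its first spot alone (0.79, limma adjusted p = 0.0506) but kept from its second (0.83, adjusted p = 0.0411). CDC6, the helicase loading factor, lay at 0.53, 0.40 and −0.01 and did not pass (limma adjusted p = 0.346).

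In the helicase part 2 of 10 genes (20%) passed, both on the high side, beside 28.5% of all genes (16% high). Of the other 8, MCM2 (0.00) and CDC45 (−0.02) lay on the median and 6 lay above it at 0.10 to 0.62, where 2720 of all 5539 genes had a mean above 0. With centring within print blocks MCM2 (−0.09) and MCM3 (−0.11) lay below it. PSF1, a GINS subunit, lay at 0.97, 1.38 and 1.28 (mean 1.21 ± 0.21, SD, n = 3; limma adjusted p = 0.00147). DPB11, a scaffold that brings GINS and polymerase epsilon to the origin, lay at 0.54, 1.66 and 0.58 (mean 0.93 ± 0.64, SD, n = 3; limma adjusted p = 0.0167). Its value on replicate 2 was far above the others, and without that array it was 0.56 (adjusted p = 0.264). The call of DPB11 was also lost without replicate 3 (1.10, limma adjusted p = 0.116) and from its second spot alone (0.81, adjusted p = 0.0857). SLD3, the partner that recruits Cdc45, lay at 0.35, 0.43 and 0.46, the smallest spread of the 37 genes between arrays, and did not pass in limma (adjusted p = 0.183). Its spots differed more, at 0.90 and −0.20 on replicate 1. Their SD, averaged over the arrays, was 0.43, against a median of 0.27 over all genes.

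PSF1 stood apart from its GINS partners. PSF2 lay at 0.60, 0.15 and 0.52, PSF3 at 0.40, 0.21 and −0.16, and SLD5, the remaining subunit, at 0.50, −0.13 and 0.33. None of them passed in limma, and PSF1 was above each on every array, by 0.79 ± 0.43 over PSF2, 0.98 ± 0.52 over SLD5 and 1.06 ± 0.44 over PSF3 (SD, n = 3 each). PSF2 had spots of −0.99 and 1.28 on replicate 2, so its value there is uncertain.

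The Mcm genes encode the ring-shaped motor of the helicase. Of the 4 among the 37, 0 passed in limma and 1 had an unadjusted p under 0.05. Over all genes these shares were 28.5% and 40.8%. MCM4 was the highest at 0.16, 1.05 and 0.64 (0.62 ± 0.44, SD, n = 3; adjusted p = 0.0701). MCM3 lay at 0.01, 0.35 and 0.28, MCM6 at −0.38, 0.65 and 0.01, and MCM2 at −0.33, 0.55 and −0.22. MCM2, MCM3, MCM4 and MCM6 were each highest on replicate 2. MCM5 and MCM7, which complete the ring, were measured too but are outside the 37, and they lay at −0.19 ± 0.31 and 0.27 ± 0.54 (SD, n = 3 each), both lowest on replicate 2. Of the 15 pairs among the 6 genes, 4 kept their order on all arrays. CDC45, the helicase cofactor, lay at 0.14, −0.15 and −0.06, in the middle of the arrays.

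No gene of the clamp part passed in limma, and 3 of its 11 genes, POL30, RFC1 and RFC3, had an unadjusted p under 0.05. Over all genes 28.5% passed and 40.8% had an unadjusted p under 0.05. POL30, which encodes PCNA, the sliding clamp, lay at 0.70, 0.26 and 0.65 (0.54 ± 0.24, SD, n = 3; adjusted p = 0.0958). The clamp is opened by replication factor C, a complex of 5 related ATPases. Its large subunit gene RFC1 lay at 0.38, 0.96 and 0.52 (0.62 ± 0.31, SD, n = 3; adjusted p = 0.061), RFC5 at 0.71, 0.78 and 0.04, and RFC2 at 0.71, 0.29 and 0.35. RFC4 was near the median at −0.05 ± 0.25 (SD, n = 3). RFC3 was the lowest, at −0.57, −1.26 and −0.11 (limma adjusted p = 0.0727), and it lay below the other 4 loader genes on every array. On replicate 2 its spots read −0.23 and −2.29.

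The genes of replication protein A, the heterotrimer that coats single-stranded DNA, all lay slightly below the median. RFA1 had a mean of −0.31 ± 0.40, RFA2 of −0.40 ± 0.21 and RFA3 of −0.35 ± 0.50 (SD, n = 3 each). None passed in limma (adjusted p = 0.207 to 0.348), and 0 had an unadjusted p under 0.05, which 40.8% of all genes reached. None of their 3 pairs kept its order on all arrays. CDC9, the DNA ligase, lay at −0.49, −1.0 and −0.04 (limma adjusted p = 0.137), and RAD27, the flap endonuclease that trims Okazaki fragments, at −0.40, −0.27 and 0.00 (adjusted p = 0.498).

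As groups, the 4 parts overlapped widely. The median of the means was −0.06 for origin, 0.31 for helicase, 0.39 for polymerase and −0.22 for clamp genes. On replicates 1, 2 and 3 the helicase median was 0.26, 0.49 and 0.37, the polymerase median 0.57, 0.45 and 0.15, and the clamp median −0.21, −0.18 and 0.04. The origin median was 0.53, −0.76 and 0.04, which shows how little it was fixed by these arrays. The helicase median was above the clamp median on every array, as was the polymerase median. The middle 50% of all genes ran from −0.42 to 0.44, and all 4 part medians fell inside it.

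Subunits of one complex did not keep a fixed order more often than other genes did. Among ORC, the Cdc7-Dbf4 kinase, the Mcm ring, GINS, the 3 polymerases, the clamp loader and replication protein A, with the subunits outside the 37 included, 38 of 65 within-complex pairs (58.5%) kept the same order on all 3 arrays. Over all pairs of named genes the share was 59.1%. It was 12 of 15 pairs in ORC and 5 of 6 in polymerase alpha-primase. Across the 37 genes, 25 lay on the same side of the median on all arrays, 17 above and 8 below, where 58.9% of all genes did so, 29.7% above and 29.2% below.

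**Figure D3:**
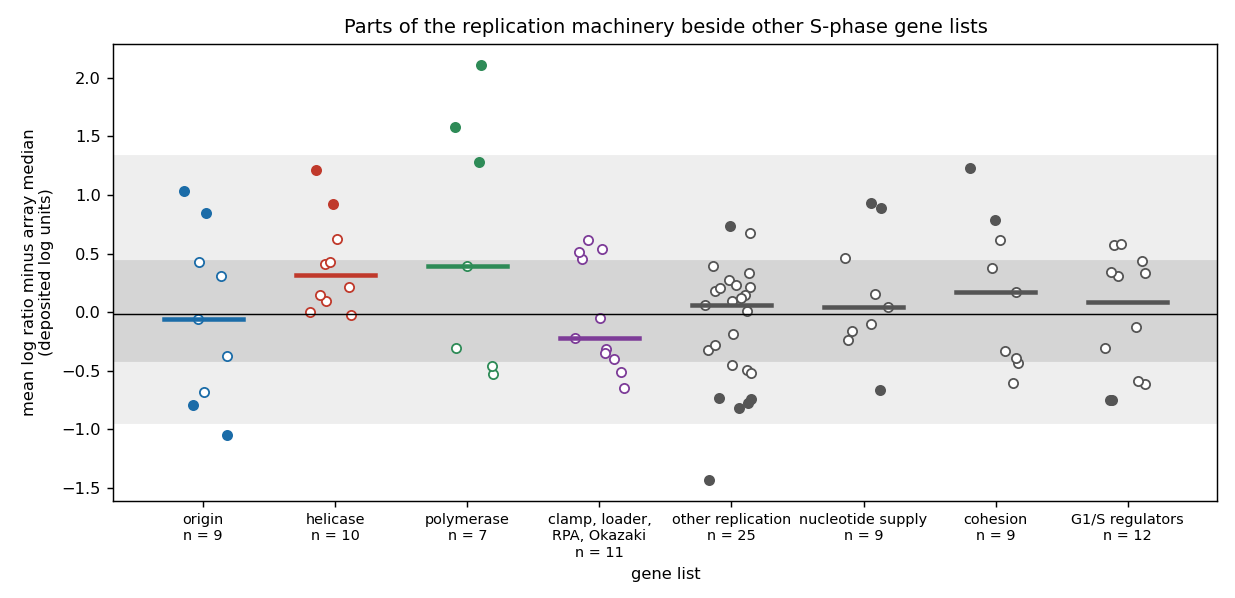
Mean log ratio of 3 arrays minus the array median (y axis, deposited log units) for single genes (points; filled where the limma adjusted p is below 0.05) in the 4 parts and in 4 other S-phase lists (x axis), with list medians as bars; dark and light grey bands hold the middle 50 and 90% of all genes. POL12 and POL1 are above the light band, which ends at 1.33, and the medians of all lists are inside the dark band.

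Other replication genes were compared from a list of 25 further factors. By limma 6 of them (24%) passed, 5 low and 1 high, against 28.5% of all genes (16% high, 12.5% low). The median of the list was 0.06. RNH203, a subunit of RNase H2, which removes RNA from DNA, was the lowest at −1.99, −0.88 and −1.42 (limma adjusted p = 0.000852). TAH11, the yeast Cdt1 that loads the Mcm ring with ORC and Cdc6, lay at −0.89, −0.69 and −0.86 (−0.81 ± 0.11, SD, n = 3; limma adjusted p = 0.0156). The fork checkpoint gene MRC1 and the topoisomerase gene TOP2 lay at −0.77 and −0.74. SLD7 (−0.73), a partner of Sld3, and CTF8 (0.73), of an alternative clamp loader, were named after their values were seen.

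Of 9 genes of nucleotide supply, 2 passed as high and 1 as low. The share called was 33.3% here, 22.2% for the cohesion genes and 16.7% for the G1 to S regulators, against 28.5% of all genes. An unadjusted p under 0.05 in limma was reached by 40.8% of all genes. RNR1, the large subunit of ribonucleotide reductase, lay at 1.23, 0.98 and 0.58 (limma adjusted p = 0.00935), and RNR3, its damage-inducible form, at 0.72, 1.30 and 0.65 (adjusted p = 0.0124). CDC8, thymidylate kinase, lay at −0.66 ± 0.21 (SD, n = 3; limma adjusted p = 0.0432). Of 9 cohesion genes, 2 were on the high side, the cohesin loader SCC2 (1.23 ± 0.71) and the cohesin subunit SMC1 (0.78 ± 0.60; SD, n = 3 each), and 0 on the low side by limma, with 4 of the 9 at an unadjusted p under 0.05. Of 12 regulators of the G1 to S passage, 2 were on the low side, the MBF co-repressor NRM1 (−0.75 ± 0.22) and the G1 cyclin CLN2 (−0.75 ± 0.44; SD, n = 3 each), and 0 on the high side by limma, with 6 of the 12 at an unadjusted p under 0.05. In bulk RNA, fewer cells in a phase and less transcript per cell cannot be told apart.

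**Figure D4:**
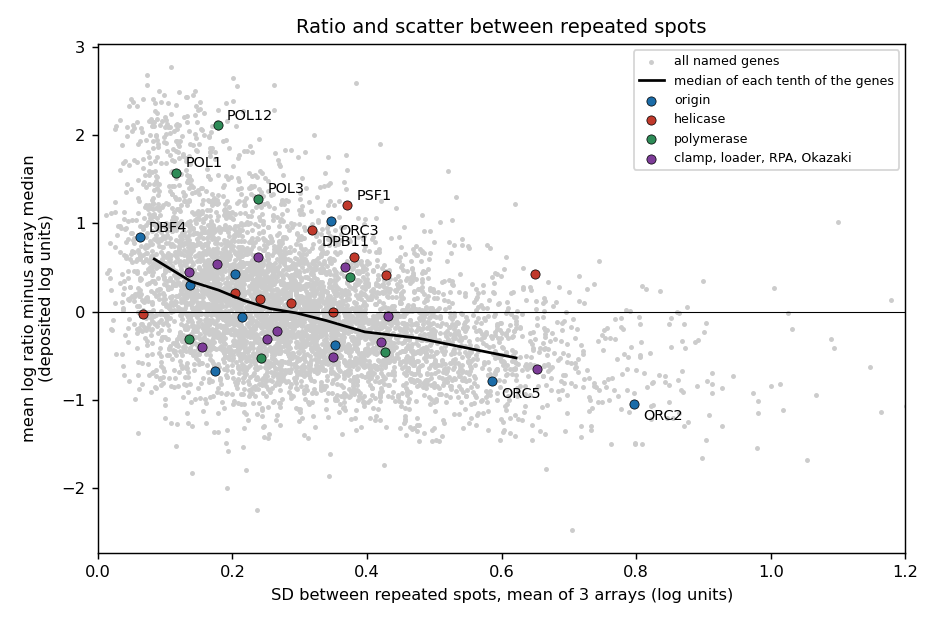
Mean log ratio minus the array median (y axis, deposited log units) against the SD between repeated spots, averaged over 3 arrays (x axis, log units), for all named genes (grey; 2 lie beyond the axis) and the replication genes (coloured by part); the line joins the medians of 10 equal groups of genes ordered by that SD. The line falls from 0.60 to −0.52, and POL12, POL1, POL3 and PSF1 lie far above it while ORC2 and ORC5 lie at the right end.

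The ratio moved with the scatter between repeated spots over the whole array, from a median of 0.60 in the tenth of genes with the smallest scatter to −0.52 in the tenth with the largest. The 7 high-side replication genes had an SD between spots of 0.06 (DBF4) to 0.37 (PSF1), and the 2 low-side genes had the larger values given above. Of the low-side genes in the other lists, CLN2 (0.56), SLD7 (0.56), CDC8 (0.54) and MRC1 (0.49) also had large scatter. It was smaller for TAH11 (0.35), RNH203 (0.25), NRM1 (0.18) and TOP2 (0.13). No other settings are given for the genes of those lists. With the trend removed on each array, POL12 was at 2.0, POL1 at 1.39, PSF1 at 1.23, POL3 at 1.21, ORC3 at 1.01 and DPB11 at 0.90, all still past the limma threshold. DBF4 (0.64, adjusted p = 0.0705), ORC2 (−0.61, adjusted p = 0.153) and ORC5 (−0.49, adjusted p = 0.209) were not. Spot brightness was not analysed here, and its part in these results was not tested.

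**Figure D5:**
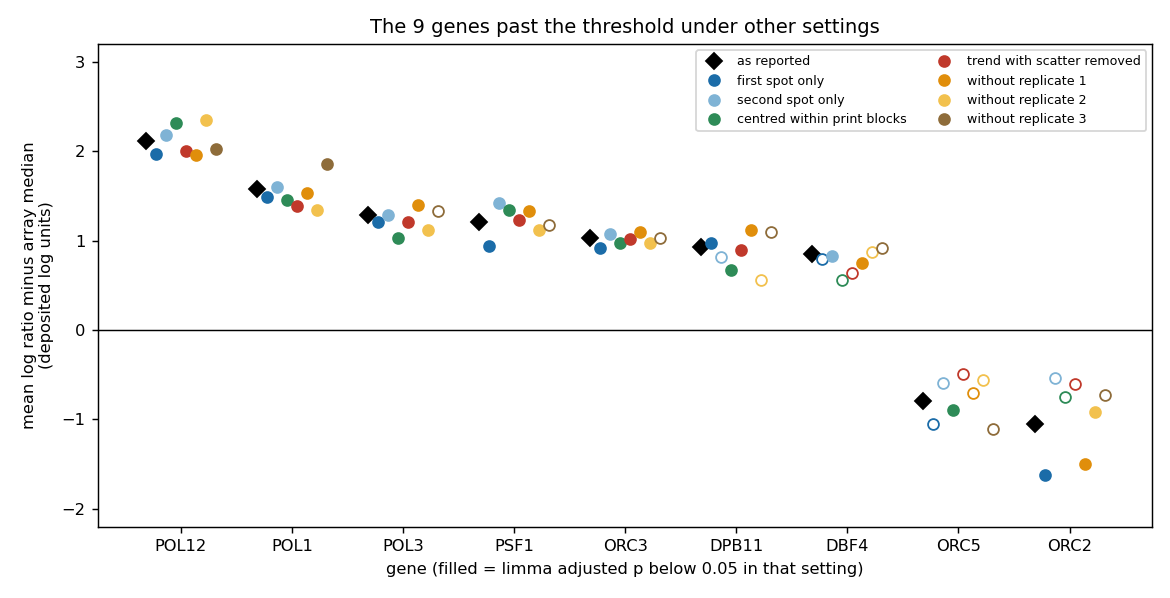
Mean log ratio minus the array median (y axis, deposited log units) for the 9 genes past the threshold (x axis) as reported (diamonds) and under 7 other settings (circles), filled where the limma adjusted p was below 0.05. POL12 and POL1 are filled under each of these, POL3, PSF1 and ORC3 under each except without replicate 3, and ORC5 under few.

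The calls thus differed in how much they rested on 1 array or 1 spot. POL12 stayed between 1.95 and 2.35 and POL1 between 1.34 and 1.85 when any array was left out, both past the limma threshold each time (largest adjusted p = 0.0358 and 0.0327). POL3 (1.12 to 1.4), PSF1 (1.12 to 1.33) and ORC3 (0.97 to 1.10) lost the call only without replicate 3, with adjusted p of 0.0598, 0.0673 and 0.0776. Without that array limma called 5.83% of all genes, against 28.5% with all 3. POL12, POL1, POL3, PSF1 and ORC3 passed from either spot alone.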

How the data were processed

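The deposited table gives 1 value per spot and array for 13056 spots, treated as a log2 ratio of the channels; no scanner output was used here. The authors' background correction, normalization, log base and ratio direction are not given in the sources used here. Spots were named through the platform annotation (11138 with 1 symbol), and locus names come from the RefSeq gene table of assembly R64. Repeated spots were averaged per gene and the median of the 5539 named genes was subtracted on every array. An intercept over the 3 arrays was fitted and tested two-sided with limma 3.58.1 (eBayes, R 4.3.3); p-values were Benjamini-Hochberg adjusted over all named genes, with a threshold of 0.05; the code was tested on simulated data. The rule for named genes allows every replication gene, subunits of a described complex, YAP1, and of each other list up to 4 called genes with the largest absolute mean. The genes, parts and lists were chosen with earlier results of these data known; CDC46 and CDC47 in the list of other factors are older names of MCM5 and MCM7 and were counted once. Alternatives changed the centring, the spots, the scatter filter, a lowess trend, the moderation and the arrays used. No sequences are shown because none were given here.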

Additional observations from a re-analysis of the deposited data

How the results depend on the processing

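No paired analysis was possible because each array is itself the comparison and there is 1 group. The choice of 0 moved the sides most. As deposited, 0 replication genes were called high, 35 low and 5260 of all genes were called in limma (0 high and 35 low at an unadjusted p under 0.05), with medians of −2.06 (origin), −1.69 (helicase), −1.61 (polymerase), −2.22 (clamp) and −1.85 (all 37). The genes that turned to the low side then were ORC3 (−0.97), ORC6 (−1.57), CDC6 (−1.69), DBF4 (−1.15), MCM2 (−2.0), MCM3 (−1.78), MCM4 (−1.38), MCM6 (−1.90), SLD3 (−1.59), DPB11 (−1.07), PSF1 (−0.79), PSF2 (−1.58), PSF3 (−1.85), POL1 (−0.42, not past the threshold), PRI2 (−1.61), POL3 (−0.72), POL30 (−1.46), RFC1 (−1.38), RFC2 (−1.55) and RFC5 (−1.49). Another reference was 384 spots at 8 block positions with no gene symbol. These positions were kept because their median lay below that of the named genes on every array, which fixed an upward shift beforehand. Against them 28 replication genes were called high (30 at an unadjusted p under 0.05), 0 low (0 unadjusted) and 3984 of all genes in limma. The medians were 0.91, 1.29, 1.36, 0.75 and 1.12 in the same order. CDC7 (0.91), CDC45 (0.95), PRI1 (0.67), RFC4 (0.92), RFA1 (0.66), RFA3 (0.63) and RAD27 (0.75) turned to the high side. So did ORC5 (0.18), ORC1 (0.29), ORC4 (0.60), POL2 (0.44), DPB2 (0.51), RFC3 (0.33), RFA2 (0.57) and CDC9 (0.46), none past the threshold. ORC2 (−0.07) stayed on the low side. These shifts follow from the constant subtracted from each array.

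Centring within print blocks gave a median of −0.0079 over the 37, against −0.06 over all genes, with 6 high and 2 low (ORC1 and ORC5). In that setting 26.7% of all genes were called. The part medians there were −0.38 (origin), 0.23 (helicase), 0.29 (polymerase) and −0.20 (clamp). The first spots gave 1 low call, 1014 calls in all (18.3% of all genes) and a median of 0.0604. The second spots gave 0 low calls (3 at an unadjusted p under 0.05) and a polymerase median of 0.16, with 20.8% of all genes called. Leaving out genes above the 75th percentile of scatter kept 29 of the 37, without ORC2 and ORC5, with 1 low call (ORC1). Of the 4154 genes kept, 30.6% were called. The medians were 0.31 (origin), 0.18 (helicase), 0.84 (polymerase), 0.11 (clamp) and 0.31 (all). The arrays were not centred anew, and the median over the 4154 genes was 0.12. Removing the trend with scatter gave 0 low calls (3 unadjusted) and a median of 0.0701, with 19.4% of all genes called. The cause of these differences was not tested. Robust moderation gave 7 high and 3 low (ORC1, ORC2 and ORC5), with 29.6% of all genes called. Leaving out 1 array gave 2 to 9 high calls, 0 to 1 low calls and 323 to 1443 calls in all (5.83 to 26.1% of all genes). The lowest count of each was without replicate 3, where 8 high and 4 low genes had an unadjusted p under 0.05.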
